A study of Ciona robusta with 15 samples.

Results

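The comparison described here sets oral siphons taken 8 days after amputation against non-regenerating oral siphons of Ciona robusta, a solitary sea squirt. It rests on the 3 libraries labelled day 8 and the 3 labelled non-regenerating, 6 of the 15 libraries in all, chosen by their labels and not by any measured value. The 3 day 0 libraries, taken at once after the cut, serve as context, and those of days 1 and 3 enter the estimate of spread. All animals were wild type siblings about 6 months old, bred from wild-caught parents, and each library held the pooled RNA of 5 siphon samples. A value is therefore the average of a pool, and p-values measure the spread between pools. The labels do not say how the non-regenerating siphons were handled apart from those of day 0, so regrowth and any difference in handling, site of cut or time of sampling cannot be told apart. In bulk tissue, fewer cells of a type and less RNA per cell cannot be told apart either.

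The oral siphon is the muscular tube through which a sea squirt draws in water. After amputation it closes its wound, builds a blastema and regrows its muscle bands and the pigmented sensory organs of its rim, partly from progenitor cells that move in from the branchial sac. The transcripts are known here by Ensembl identifier only. The reference table of 21486 Ciona genes matched 0 of the 17745 identifiers, so none is given a gene name, a role, a position or a sequence, and the tissue's marker genes could not be looked up.

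The 3 non-regenerating libraries held 10573547 to 33413013 read counts and the 3 day 8 libraries 12545397 to 15170419. After a filter on low counts 15328 transcripts were tested. Levels are CPM, counts scaled to a common library total, after correction by the trimmed mean of M-values (TMM). They are not divided by transcript length, so they rank shares of reads and not molecules. A transcript is called where edgeR's quasi-likelihood test gave an adjusted p under 0.05. Libraries did not all lie with their own stage. Non-regenerating replicate 1 correlated best with day 8 replicate 2 across transcripts (Spearman's rho 0.923), and day 8 replicate 3 with day 1 replicate 2 (0.980). With the other day 8 replicates, day 8 replicate 3 correlated at 0.942 and 0.940. Day 1 replicate 3 in turn correlated best with day 8 replicate 2 (0.975), and at 0.953 and 0.945 with the other day 1 replicates. Whether replicate 3 of day 1 and replicate 3 of day 8 were exchanged was not tested. Such mixing was not confined to these libraries. Day 3 replicate 3 correlated best with day 0 replicate 1 (0.977), and at 0.937 and 0.957 with the other day 3 replicates. Day 3 replicate 2 correlated best with day 1 replicate 2 (0.975). All were kept under their labels. The count of calls is given below without non-regenerating replicate 1, without day 8 replicate 3, and without replicate 3 of both day 1 and day 8.

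At day 8 the siphon still differed from the non-regenerating one in 2589 transcripts, which is 16.9% of those tested. Of these, 1250 were higher at day 8 (8.16%) and 1339 were lower (8.74%). The differences were mostly moderate. The median called transcript differed 2.54-fold when higher and 2.58-fold when lower, 1894 calls exceeded 2-fold, 636 exceeded 4-fold and 68 exceeded 16-fold. Over all transcripts tested the median size of the log2 fold change was 0.525 and its signed median 0.01. The 6 libraries did not overlap in 5184 transcripts (33.8%), and 2517 of these were called (16.4% of those tested). At an unadjusted p under 0.05 there were 4971 (32.4%). A core of 1126 transcripts was called again each time 1 of the 6 libraries was left out, 504 of them higher and 622 lower at day 8, and 401 of them differed more than 4-fold.

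**Figure D1:**
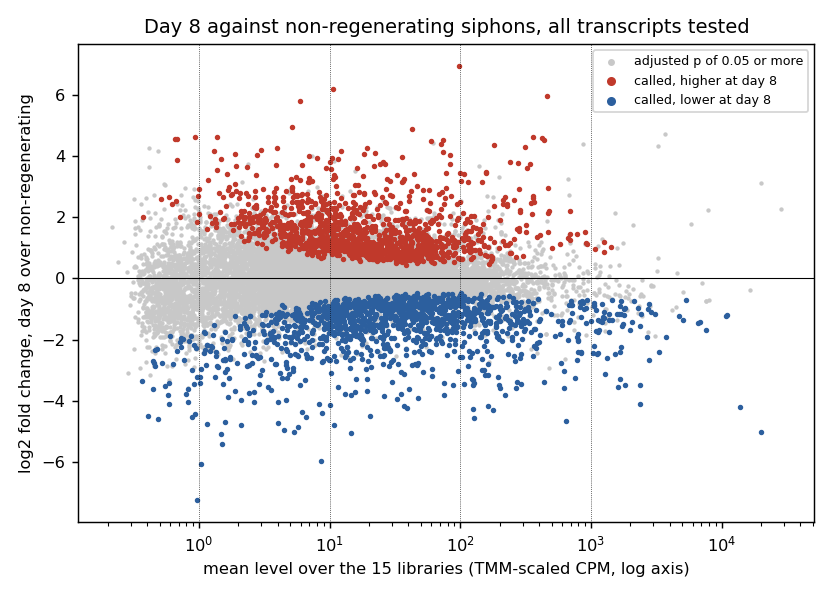
The log2 fold change of day 8 over non-regenerating siphons is plotted for the 15328 transcripts tested against their mean level over the 15 libraries in TMM-scaled CPM (log axis). Red points are the 1250 called higher, blue points the 1339 called lower, grey points the rest, and dotted lines bound the abundance classes. Among transcripts of 1000 CPM and over, 67 of 71 calls lie below 0 on this scale.

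The count rests on the libraries that enter it, whose spread was unequal. The biological coefficient of variation, a measure of spread between replicates, was 0.497 for non-regenerating libraries. For days 0, 1, 3 and 8 it was 0.287, 0.317, 0.334 and 0.322. A single spread per transcript was fitted to all groups. Against non-regenerating siphons this shared spread can be too small, and p-values too low. Between day 8 and day 0 it can be too large. How far this moved the counts was not tested. Without non-regenerating replicate 1 there were 3827 calls, without non-regenerating replicate 2 1669, without day 8 replicate 1 1586 and without day 8 replicate 3 1638, and the 6 libraries fitted alone gave 927. The balance of directions moved with the libraries too, also under TMM. The 6 alone gave 312 higher and 615 lower, and the 9 of non-regenerating, day 0 and day 8 gave 777 and 1054. Without non-regenerating replicate 1 there were 2208 higher and 1619 lower. Scaling by library totals alone moved the median log2 fold change of all transcripts from 0.01 to 0.62, and with it 4937 calls were higher and 504 lower, so that 90.7% of calls were higher where TMM gave 48.3%. Directions below are on the TMM scale, that is, relative to the bulk of transcripts.

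On the TMM scale the most abundant transcripts were called most often and mostly as lower at day 8. Classes were set by the mean level over all 15 libraries. Of 1131 transcripts under 1 CPM, 47 were called (4.16%), with 12 higher and 35 lower. The filter can keep a transcript that reaches its limit in the 3 libraries of 1 group only. Rare transcripts kept through the non-regenerating libraries could then only be called lower, and those kept through day 8 only higher. Their number was not counted, so nothing is read from the directions in this class. Of 5568 at 1 to 10 CPM, 680 were called (12.2%), with 404 higher and 276 lower. In the largest class, the 7169 transcripts at 10 to 100 CPM, 1414 were called (19.7%), and the directions were nearly even at 706 higher and 708 lower. Of 1312 at 100 to 1000 CPM, 377 were called (28.7%), with 124 higher and 253 lower. Of the 148 at 1000 CPM and over, 71 were called (48%), and 67 of these were lower at day 8.

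Precision differed between the classes. The median standard error of the log2 fold change was 0.785 under 1 CPM, 0.447 at 1 to 10 CPM and 0.264 to 0.298 in the higher classes, so fewer calls among rare transcripts do not show that these differed less. The median size of difference was 0.783 under 1 CPM and 0.437 at 10 to 100 CPM. This size grows with the error, so it does not show that rare transcripts differed more either. Between day 8 and day 0, with 0 calls, the same medians were 0.569 and 0.291. In the class of 1000 CPM and over the median log2 fold change was -0.89. On library totals it was -0.26 there and 0.88 below the median of all transcripts, with 15 calls higher and 35 lower. On that scale the order of the shares turned, with 33.8% of the top class called, 43.3% at 100 to 1000 CPM and 44.3% at 10 to 100 CPM. Some transcripts reach this class only through the non-regenerating libraries. Of its 148 members, 34 had a mean under 1000 CPM in the other 12 libraries, and 28 of the 67 called lower were among these. With the class set by days 0, 1 and 3 alone, which are not in the comparison, it held 122 transcripts, of which 47 were called, with 7 higher and 40 lower. The class of 100 to 1000 CPM then had 141 higher and 214 lower calls, and the class under 1 CPM 12 higher and 79 lower.

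**Figure D2:**
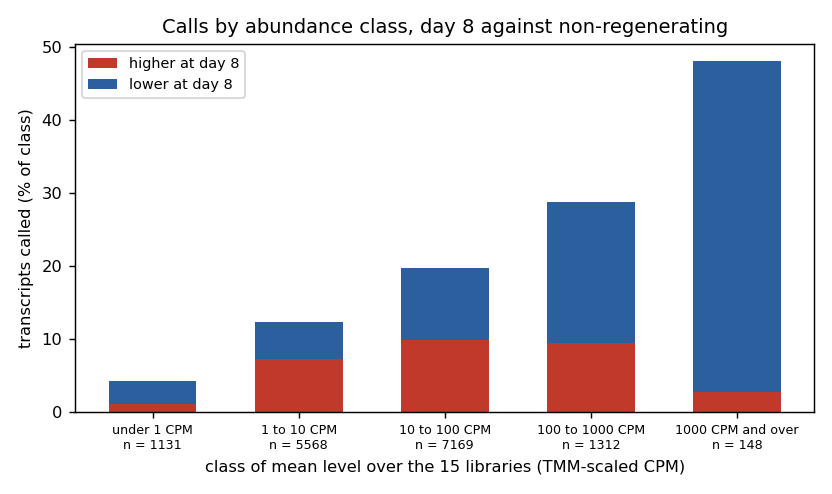
Bars show the percentage of each abundance class called between day 8 and non-regenerating siphons, split into higher (red) and lower (blue) at day 8. Classes are of mean TMM-scaled CPM over the 15 libraries, with the number of transcripts under each. The share called climbs from 4.16% to 48%, and in the top class 67 of 71 calls are lower.

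In terms of reads, the difference was large. The 1339 transcripts called lower took 52.3%, 50.2% and 47.98% of all counts in non-regenerating replicates 1, 2 and 3. They took 21.7%, 22.8% and 18.96% in the day 8 libraries. The 1250 called higher took 2.12%, 1.79% and 1.61% in the non-regenerating libraries and 7.35%, 7.04% and 7.73% at day 8. The lists were chosen on these libraries, so the direction of both shares is fixed by the choice and only their size is described. The day 0, 1 and 3 libraries, which are not in the groups compared but were in the fit that made the calls, lay at 17.6% to 24.2% for the first list and 6.91% to 8.23% for the second. Part of their gap from the non-regenerating shares is fixed as well, since the lists were chosen on the non-regenerating values. The core of 622 lower transcripts alone took 36.1% to 40.02% of non-regenerating counts and 10.9% to 13.8% of day 8 counts. The 20 most counted transcripts of each library, a measure that used no call, held 27.96% ± 1.49 of counts in non-regenerating and 20.3% ± 1.24 in day 8 libraries (SD, n = 3 each). The groups did not overlap, and the two-sided exact permutation test gave p = 0.1, the smallest that 3 against 3 allows.

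**Figure D3:**
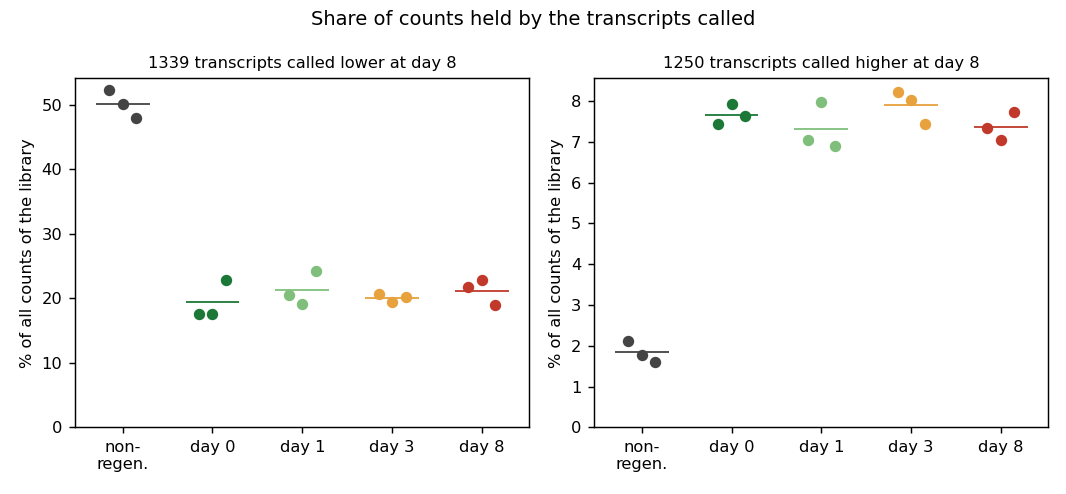
Each point is a library and each line a group mean, and the vertical axis gives the percentage of all its counts held by the transcripts called lower (left) or higher (right) at day 8. Non-regenerating libraries stand at 47.98% to 52.3% on the left and 1.61% to 2.12% on the right, away from the libraries of every other stage.

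A pair of transcripts held a good part of these counts. ENSCINT00000019271 stood at 93326, 86437 and 90660 CPM in non-regenerating replicates 1, 2 and 3 and at 3365, 3805 and 1253 CPM at day 8. It was the most abundant call, its non-regenerating pools were close to each other, and it was 32.1-fold lower (log2 fold change -5.00 ± 0.728, SE, edgeR adjusted p = 0.000818). ENSCINT00000015480 stood at 72044, 45498 and 65860 CPM in the non-regenerating pools and at 3688, 5357 and 900.03 CPM at day 8 (log2 fold change -4.20 ± 0.887, edgeR adjusted p = 0.00678). In both, day 8 replicate 3 was the lowest day 8 library by a wide margin. Together they took 10.06% to 12.5% of non-regenerating counts and 0.229% to 1.03% of day 8 counts.

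Below this pair, 16 more transcripts of the class of 1000 CPM and over were more than 4-fold lower, which makes 18 in all. Of these, 14 had a mean under 1000 CPM in the other 12 libraries and so belong to the class through their non-regenerating level. With the class set by days 0, 1 and 3 it held 4 calls more than 4-fold lower and 0 more than 4-fold higher, and the class of 100 to 1000 CPM held 41 such calls lower and 48 higher. The 6 libraries did not overlap in 33.8% of all transcripts tested, in 2517 of all 2589 calls and in each of these 18. Their non-regenerating means ran from 2841 to 90141 CPM and their day 8 means from 495 to 3315 CPM, and together they took 16.3% to 19.7% of non-regenerating and 1.25% to 2.74% of day 8 counts. The other 49 transcripts of the class called lower differed less, 35 of them between 2-fold and 4-fold and 14 by under 2-fold. The following members of the 18 were chosen after their values were seen. ENSCINT00000014813 stood at 10658, 9192 and 9561 CPM in the non-regenerating pools and at 625, 747 and 362 CPM at day 8 (log2 fold change -4.08 ± 0.678, edgeR adjusted p = 0.00156). ENSCINT00000035750 stood at 4258, 4958 and 4976 CPM in non-regenerating and at 871, 869.6 and 945 CPM in day 8 pools (edgeR adjusted p = 4.45e-05), the lowest p of the comparison. ENSCINT00000031899 had the same adjusted p, at 3926, 4581 and 4748 against 785, 769.7 and 850.07 CPM. Its counts were 0.874 to 0.954 times those of ENSCINT00000035750 in every one of the 15 libraries, so the pair may be a single signal, and whether they share reads was not tested.

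Among the most abundant calls by rule, the next after this pair were ENSCINT00000033314 and ENSCINT00000014075. ENSCINT00000033314 stood at 20129, 14803 and 26209 CPM in the non-regenerating pools and at 8618, 8452 and 9369 CPM at day 8, 2.31-fold lower (edgeR adjusted p = 0.0118). ENSCINT00000014075 stood at 23943, 15458 and 13984 CPM against 6829, 7142 and 8602 CPM, 2.37-fold lower (edgeR adjusted p = 0.0445), and passed in 7 of 18 alternatives. The day 8 pools of both lay close together, and the spread was in the non-regenerating pools.

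The abundant transcripts called higher at day 8 were fewer than those called lower, and their differences were smaller. ENSCINT00000025245 led them, at 525, 767 and 802 CPM in non-regenerating and 1595, 1206 and 1473 CPM in day 8 pools (log2 fold change 1.03 ± 0.251, edgeR adjusted p = 0.0134). ENSCINT00000022579 was 2.27-fold higher, at 498, 493 and 689 against 1427, 1285 and 1096 CPM (edgeR adjusted p = 0.0065), and passed in all 18 alternatives. ENSCINT00000006912 was 1.83-fold higher (edgeR adjusted p = 0.0241, passing in 12 of 18 alternatives). Its counts were 0.842 to 0.982 times those of ENSCINT00000025245 in the 15 libraries, so these may be a single signal too. ENSCINT00000035637 was 1.95-fold higher (edgeR adjusted p = 0.0395, 9 of 18), and its non-regenerating replicate 3, at 934 CPM, came close to the lowest day 8 pool at 1052 CPM.

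A further 6 transcripts of this class were more than 4-fold higher in the fitted mean at day 8 and yet not called, and in them the non-regenerating pools lay far apart. All 6 were picked out for these values. ENSCINT00000009238 stood at 19442 CPM in non-regenerating replicate 1 but at 2.03 and 0.882 CPM in replicates 2 and 3, and at 23725, 20735 and 48268 CPM at day 8 (edgeR adjusted p = 0.454). ENSCINT00000009234 followed it, at 7230, 0.268 and 1.03 CPM against 16100, 13116 and 33099 CPM (edgeR adjusted p = 0.305). ENSCINT00000012810 stood at 549, 0.881 and 1.18 CPM against 4657, 4339 and 5472 CPM, with an adjusted p of 0.0700 in edgeR. ENSCINT00000026136 was split the other way, at 11.7, 31.8 and 8287 CPM against 20813, 14938 and 3406 CPM. Replicate 1 was the highest non-regenerating pool in 4 of the 6. In 5 of the 6, all but ENSCINT00000026136, every day 8 pool stood above all 3 non-regenerating pools. The same held for 16.5% of all transcripts tested, and the 6 were picked for a rise, so this is a description only.

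The largest rises among transcripts of at least 5 CPM were in members that were low in most non-regenerating pools and, in several cases, uneven at day 8. ENSCINT00000013283 stood at 0.853, 0.728 and 2.06 CPM in the non-regenerating pools and at 79.96, 101 and 223 CPM at day 8 (log2 fold change 6.94 ± 1.60, edgeR adjusted p = 0.0112). ENSCINT00000028075 stood at 28.1, 0.268 and 0.441 CPM against 696, 502 and 620 CPM (log2 fold change 5.96 ± 1.31, edgeR adjusted p = 0.00865). It passed in 17 of 18 alternatives, and ENSCINT00000013283 in 16. Its day 8 pools were even, while non-regenerating replicate 1 stood far above the other two. ENSCINT00000030562 was the steadiest of the set, at 8.31, 5.63 and 14.3 CPM against 103, 239.99 and 336 CPM, 24.4-fold higher (edgeR adjusted p = 0.000576), and it passed in all 18 alternatives.

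The other members of this set were less firm. ENSCINT00000031428 stood at 3.84, 0.153 and 0.147 CPM in the non-regenerating pools and at 19.2, 5.28 and 99.5 CPM at day 8 (edgeR adjusted p = 0.0272). ENSCINT00000037320 stood at 14.6, 2.45 and 69.7 CPM against 934, 691 and 409 CPM (edgeR adjusted p = 0.032). Each passed in 9 of 18 alternatives. ENSCINT00000022346 completes the 6 and is described with the near on/off transcripts.

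All 6 of the largest falls passed in every alternative that held them, and ENSCINT00000019271 above and a pair of near on/off transcripts below are among them. ENSCINT00000026038 stood at 76.6, 84.9 and 16.6 CPM in the non-regenerating pools and at 1.32, 1.35 and 2.75 CPM at day 8 (log2 fold change -5.04 ± 0.857, edgeR adjusted p = 0.00202). ENSCINT00000033656 stood at 32.5, 16.2 and 24.1 CPM against 0.556, 0.235 and 1.47 CPM, 31.98-fold lower (edgeR adjusted p = 0.000903). ENSCINT00000027255 had the largest fall of the comparison at this level, a log2 fold change of -5.95 ± 1.18 (edgeR adjusted p = 0.00516), at 6.18, 90.1 and 21.8 CPM against 0.695, 1.06 and 0.128 CPM. No day 8 pool reached a non-regenerating one in these 3, as the rule that named them required.

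**Figure D4:**
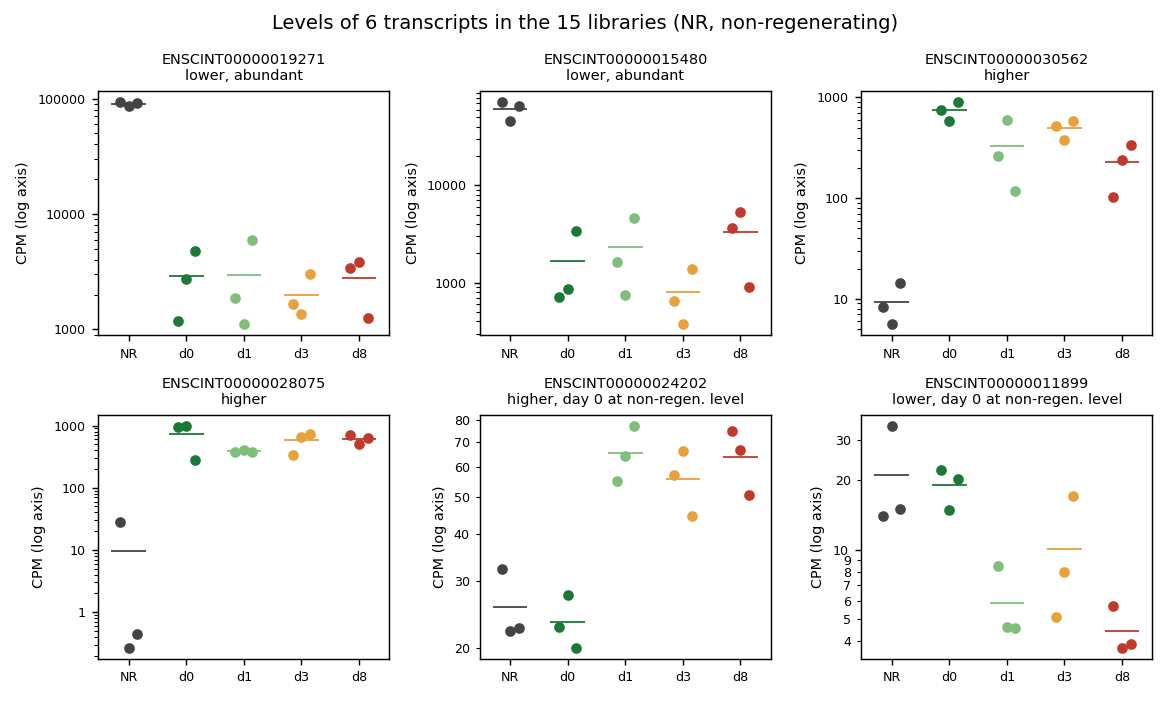
Levels in CPM (log axes) are shown in each of the 15 libraries, with group means as lines, for 6 transcripts that differ between day 8 (d8) and non-regenerating (NR) siphons. In the upper row and at lower left the day 0 (d0) pools already lie apart from the non-regenerating ones. In the last 2 panels day 0 lies at the non-regenerating level and day 8 does not.

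Near on/off transcripts were few. The rule asked for a mean of at least 5 CPM in 1 group and under 0.5 CPM in every library of the other. Of 11117 transcripts with a mean of at least 5 CPM at day 8, 3 met it, and of 10678 with such a mean in the non-regenerating group, 3 met it. All 6 were called, where 16.9% of all tested were, and the rule favours calls since it picks on the levels compared. None had 0 counts throughout the low group. All were low or modest in the high group, with means of 5.06 to 14.4 CPM.

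On at day 8, ENSCINT00000022346 stood at 15.4, 6.28 and 21.5 CPM, where the non-regenerating pools held 10 counts, all in replicate 2. The ratio of the groups' summed counts, scaled for depth, was 66.2, with an exact 95% interval of 35.8 to 138.7 that covers counting error only. ENSCINT00000032994 stood at 5.77, 3.58 and 8.07 CPM against 0.497, 0.345 and 0.294 CPM, a ratio of 14.97 (9.30 to 25.7). ENSCINT00000029746 stood at 3.61, 3.17 and 8.39 CPM against 0.497, 0.192 and 0 CPM, a ratio of 19.7 (11.1 to 38.7), and passed in 9 of 17 alternatives. All 3 had a mean of at least 5 CPM at day 0 as well.

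On in the non-regenerating siphons, ENSCINT00000030190 stood at 3.77, 6.90 and 9.71 CPM, and the day 8 pools at 0.208, 0 and 0.256 CPM, a ratio of 42.8 (20.5 to 107). ENSCINT00000001756 stood at 9.10, 10.8 and 1.32 CPM against 0, 0.469 and 0.128 CPM, a ratio of 41.97 (22.6 to 88.2). ENSCINT00000027702 stood at 8.03, 6.17 and 4.12 CPM against 0.139, 0.411 and 0.128 CPM, a ratio of 27.5 (15.2 to 55.7). The first and second were also under 0.5 CPM in every day 0 library, and ENSCINT00000027702 reached 0.768 CPM there.

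The number on at day 8 depended on 1 pool. Without non-regenerating replicate 1 it was 46 in place of 3. The 43 added had at least 0.5 CPM in that replicate by the rule itself, and 26 had at least 5 CPM there. Of the 46, 14 were called, where 16.9% of all transcripts tested were. The 46 were picked on the levels compared, so nothing is read from that number. With a limit of 1 CPM for off, 13 were on at day 8 and 12 on in the non-regenerating siphons, and with 0.2 CPM there were 0 of each.

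Most of what separated day 8 from the non-regenerating siphons had the same direction at day 0. Day 0 differed from the non-regenerating group in 4336 transcripts (28.3% of those tested), with 2079 higher (13.6%) and 2257 lower (14.7%). Of the 2589 calls at day 8, 2047 (79.1%) were also called at day 0 in the same direction, 0 were called in the opposite one, and 542 (20.9%) were not called. From the other side, the 2047 were 47.2% of the day 0 calls. Both comparisons use the same 3 non-regenerating libraries, whose own deviations push them the same way, so the counts describe these data and do not measure agreement.

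Being called at 1 time and not at the other does not show a difference between the times. The 542 called at day 8 alone, 281 higher and 261 lower, had a median size of 1.13 at day 8 and lay 0.569 in the same direction at day 0 (log2 fold change against non-regenerating). The 2289 called at day 0 alone, 1110 higher and 1179 lower, mirrored them, with 1.33 at day 0 and 0.662 in the same direction at day 8. Day 8 against day 0 tests the difference itself, since the non-regenerating term drops out. There edgeR called 0 transcripts, with 2192 at an unadjusted p under 0.05 (14.3%) and a lowest adjusted p of 0.113. The same contrast gave 381 calls in DESeq2 and, in limma voom, 0 without and 3859 with library weights. When day 8 replicate 3 was left out, edgeR called 79, of which 62 were higher at day 8.

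The day 0 libraries did not overlap the non-regenerating ones in 41.9% of all transcripts tested, nor those of day 8 in 22.3%. They placed the 2589 calls in several groups. In 1729 (66.8%) the day 0 libraries overlapped those of day 8 and were clear of the non-regenerating ones, and the same held for 29.3% of all transcripts tested. In 278 (10.7%, and 8.87% of all tested) they lay beyond day 8, farther from the non-regenerating level. In 173 (6.68%, and 1.23% of all) they lay between both groups and clear of each, and in 208 (8.03%, and 47.8% of all) they overlapped both. In the remaining 201 (7.76%, and 10.3% of all tested) the day 0 libraries overlapped the non-regenerating ones and were clear of day 8. The 201, of which 101 were higher and 100 lower at day 8, are a share near and below that over all transcripts, so nothing is read from their number. Of them 192 were among the 542 not called at day 0, and the day 0 libraries overlapped the non-regenerating ones in 409 calls in all. Between day 8 and day 0 edgeR called 0 of the 201, and 141 had an unadjusted p under 0.05, against 14.3% of all tested. The 201 were picked for day 0 libraries clear of day 8, so low p-values there follow from the choice.

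Of those 201 with at least 5 CPM in the higher group, ENSCINT00000024202 had the lowest p between day 8 and day 0. It stood at 32.3, 22.2 and 22.7 CPM in non-regenerating, 22.8, 27.7 and 20.1 CPM in day 0 and 74.7, 66.7 and 50.6 CPM in day 8 pools. On the log2 scale it exceeded the non-regenerating group by 1.31 ± 0.228 (edgeR adjusted p = 0.00189) and day 0 by 1.44 ± 0.228 (edgeR adjusted p = 0.113). It was already high at day 1, at 55.4 to 77.3 CPM. ENSCINT00000025489 was 2.23-fold higher than in non-regenerating pools (edgeR adjusted p = 0.0186), at 64.7, 54.6 and 49.1 CPM against 26.6, 29.7 and 19.1 CPM, with 16.9, 26.02 and 16.7 CPM at day 0. Its day 1 pools, at 24.8 to 40.97 CPM, lay below those of day 8 and overlapped the non-regenerating ones. ENSCINT00000032086 was 2.40-fold higher (edgeR adjusted p = 0.00249), at 67.9, 67.2 and 43.1 CPM against 34.1, 20.7 and 19.3 CPM, with 30.2, 30.8 and 25.7 CPM at day 0. Its day 1 pools, at 46.0 to 51.3 CPM, lay above all non-regenerating and day 0 pools, and its day 3 pools stood at 28.2 to 30.3 CPM.

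Among those lower, ENSCINT00000011899 had the largest difference of the named ones. It stood at 13.9, 34.5 and 15.0 CPM in the non-regenerating, 22.2, 14.8 and 20.3 CPM in the day 0 and 5.70, 3.75 and 3.91 CPM in the day 8 pools. Its log2 fold change was -2.26 ± 0.463 against non-regenerating (edgeR adjusted p = 0.00546) and -2.10 ± 0.461 against day 0 (adjusted p = 0.168). ENSCINT00000005786 was 2.03-fold lower than in the non-regenerating pools (edgeR adjusted p = 0.00341), at 111, 99.2 and 109 CPM against 214, 177 and 258 CPM, with 208, 199.9 and 166 CPM at day 0. ENSCINT00000018197 was 1.76-fold lower (edgeR adjusted p = 0.0184), at 7.71, 7.04 and 6.73 CPM against 11.4, 13.6 and 12.6 CPM, with 11.5, 11.8 and 17.2 CPM at day 0. It passed in 11 of 18 alternatives, and on library totals its log2 fold change was -0.20 (edgeR adjusted p = 0.564). The day 1 pools of these lower transcripts already lay below all non-regenerating and day 0 pools. ENSCINT00000011899 stood there at 4.59 to 8.46 CPM, ENSCINT00000005786 at 114 to 130 CPM and ENSCINT00000018197 at 8.75 to 9.73 CPM. At day 3 they stood, in that order, at 5.08 to 17.1, 161 to 217 and 9.91 to 12.3 CPM. None of the 6 transcripts named for this pattern, higher or lower, passed the test between day 8 and day 0 in edgeR.

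At the other extreme were strong differences from the non-regenerating state with nearly the same mean at day 8 and day 0. ENSCINT00000014278 stood at 134, 109.1 and 132 CPM in non-regenerating, 10.3, 20.9 and 11.7 CPM in day 0 and 15.8, 17.1 and 10.2 CPM in day 8 pools. It was 8.70-fold lower at day 8 than in the non-regenerating siphons (edgeR adjusted p = 9.81e-05), and its log2 fold change from day 0 to day 8 was 0.01 ± 0.289. ENSCINT00000023388 was 16.2-fold lower (edgeR adjusted p = 0.000951), at 0.834, 0.411 and 0.640 CPM against 5.61, 12.1 and 13.1 CPM, with 0.558 to 0.671 CPM at day 0. ENSCINT00000029271 was 10.4-fold lower (edgeR adjusted p = 0.0302), but its pools varied from 381 to 2486 CPM in the non-regenerating group and from 22.7 to 223 CPM at day 8, and it passed in 10 of 18 alternatives.

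Among the higher ones, ENSCINT00000034907 stood at 8.53, 21.5 and 14.4 CPM in non-regenerating, 108, 130.1 and 57.1 CPM in day 0 and 101, 98.7 and 86.6 CPM in day 8 pools, 6.43-fold higher at day 8 (edgeR adjusted p = 0.000672). ENSCINT00000024332 was 13.8-fold higher (edgeR adjusted p = 0.00155), at 32.6, 41.1 and 38.3 CPM against 6.11, 1.26 and 0.441 CPM, with 21.7 to 56.7 CPM at day 0. ENSCINT00000023228 was 9.06-fold higher (edgeR adjusted p = 0.00283), at 9.17, 9.74 and 10.2 CPM against 1.63, 0.613 and 1.03 CPM. These 3 had more even pools at day 8 than at day 0. They were named for their small day 8 to day 0 difference, so that this difference is a description and not a result.

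Over whole libraries, day 8 pools were nearer to day 0 than to the non-regenerating pools. The root mean square difference in log2 CPM between a day 8 and a non-regenerating library was 1.40 on average over 9 pairs, from 1.06 to 1.79. It was 0.923 between day 8 and day 0, and 0.815 among the 3 day 8 libraries. The non-regenerating libraries were themselves 1.23 apart on average, from 1.09 to 1.46. The 2 shortest day 8 to non-regenerating distances, 1.06 and 1.07, both belonged to non-regenerating replicate 1, and its distances to the other non-regenerating replicates were 1.14 and 1.46. This closeness was not particular to day 8. Its nearest library was day 1 replicate 3, at 1.05, and it lay 1.21 to 1.32 from the day 0 libraries, where replicate 2 lay 1.60 to 1.68. Among the 2589 calls non-regenerating replicate 1 was the pool of its group closest to day 8 in 1330, compared with 627 for replicate 2 and 632 for replicate 3.

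Whether day 8 had come closer to the non-regenerating state than day 0 was not resolved. The mean distance of a library to the 3 non-regenerating ones was 1.40 ± 0.129 at day 8 and 1.56 ± 0.0389 at day 0 (SD, n = 3 each). The two-sided exact permutation test gave p = 0.2, where 0.1 is the smallest that 3 against 3 allows. Day 8 replicates 1 and 2, both at 1.32, lay below all day 0 libraries, which ranged from 1.53 to 1.60, but replicate 3 lay among them at 1.55. On the same measure the day 1 libraries averaged 1.33 and those of day 3 1.53, so the distance did not fall steadily with the days. Depth moves such distances too, and the shallowest libraries are non-regenerating replicate 3 and day 3 replicate 1, whose part in them was not tested.

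**Figure D5:**
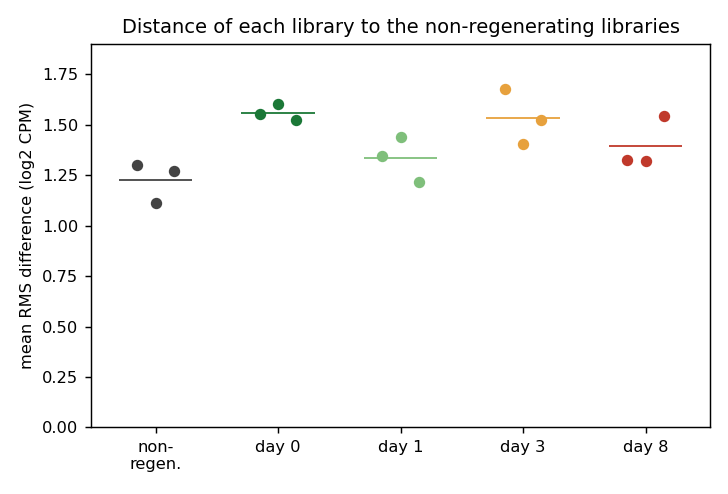
Each point is a library, each line a group mean, and the vertical axis is the mean root mean square difference in log2 CPM to the non-regenerating libraries (for a non-regenerating library, to the other two). The day 8 libraries stand at 1.32, 1.32 and 1.55, the day 0 libraries between 1.53 and 1.60 and the day 1 libraries between 1.22 and 1.44.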

How the data were processed

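Polyadenylated RNA of 15 siphon pools was read on an Ion Proton instrument, per the labels. The deposited values are raw read counts per Ensembl transcript, made with TopHat, Bowtie and HTSeq per the submitters' processing notes. For versions, settings, genome build and strand the sources used here give nothing, so antisense and overlapping transcripts cannot be told apart. Samples were grouped by their titles. Counts passed edgeR's expression filter (minimum count 10), which left 15328 of 17745 transcripts and at least 99.95% of each library's counts. They were scaled by TMM and fitted with a mean per group over all 15 libraries in edgeR 4.0.16 under R 4.3.3 (robust glmQLFit, glmQLFTest), with Benjamini-Hochberg adjustment over all transcripts tested and a threshold of 0.05. Standard errors were derived from the F statistics. Log2 CPM for distances used a prior count of 0.5. The procedure was tested on simulated data drawn with the same spread in every group. That test does not cover the wider spread of the non-regenerating libraries. Alternatives used DESeq2 1.42.0, limma 3.58.1, other scalings and filters, fewer libraries and the replicate number as a block. No replicate pair agreed within sampling noise.

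Named transcripts were the 6 largest differences each way among calls without overlap and with at least 5 CPM in the higher group, the 4 most abundant such calls each way, 3 near on/off each way, 3 each way with day 0 at the non-regenerating level and the lowest p between day 8 and day 0, and 3 each way, among the 100 largest, with the smallest difference between day 8 and day 0. Others are said to be chosen after their values were seen. The comparison and lists were chosen with earlier results of these data known. Gene and marker lists could not be used without gene names.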

Additional observations from a re-analysis of the deposited data

How the results depend on the processing

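The 2589 calls between day 8 and non-regenerating siphons stayed within 1.5 times in edgeR with size factors as in DESeq2, other filters, near-identical transcripts counted once (105 sets) and the 9 libraries of the 3 groups, and in DESeq2 and limma voom with or without library weights. They moved to 5441 with library totals alone, 927 in the groups compared alone and 1723 without replicate 3 of day 1 and day 8 (added after seeing the data) and ranged from 1586 to 3827 with each library left out. The 4336 calls at day 0 moved to 2776 in the groups alone and ranged from 2928 to 4984. The 0 calls between day 8 and day 0 became 381 in DESeq2, 3859 with library weights, 1 in the groups alone and 324 without replicate 3 of day 1 and day 8, and ranged from 0 to 79 with a library left out. The 542 called at day 8 alone became 1561 with library totals, 829 in DESeq2, 862 with library weights, 333 in the 9 libraries and 158 in the groups alone, and ranged from 162 to 768. Near on/off transcripts on at day 8 numbered 8 with library totals, 0 at 0.2 CPM and 13 at 1 CPM, and 2 to 46 with a library left out. Those on in the non-regenerating siphons numbered 0, 0 and 12, and 3 to 7. Replicate numbers recur in every group but do not pair the samples: the deviations of same-numbered day 8 and non-regenerating libraries correlated at -0.139, 0.181 and -0.0567, and 2 of 6 libraries correlated best with their own number. With the replicate block there were 2154 calls at day 8, 3917 at day 0, 0 between these and 447 at day 8 alone. Named transcripts kept their direction in all 606 values over the alternatives, of which 82 missed the threshold. Causes were not tested.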
